A study of Mus musculus with 8 samples.

Results

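The 49 genes described here encode the kinetochore, the spindle assembly checkpoint, the condensin I complex and the mitotic kinases and cytokinesis proteins that work with them. The set is defined by name: each probe whose gene name in the scanner files equals 1 of the 49 symbols, control spots left out, belongs to it. The genes were chosen with earlier results of these data known. All 49 were on the array, with 68 probes, of 22031 genes named there. Their RNA was measured in satellite cells, the stem cells that lie beneath the sheath of muscle fibres, on 1-colour Agilent arrays. Muscle was taken 3 days after cardiotoxin, a toxin of snake venom that destroys the fibres (injured, n = 4 arrays), or in the basal state (n = 4 arrays). All mice were labelled as C57BL/6 males aged 3 months, and each array held 1 labelled biological replicate. The sample names in the authors' normalized values carry WT, for wild type, in both groups. Cells were sorted by flow cytometry for integrin alpha 7 and against CD31, CD45, CD11b and Sca1, and the labels do not say whether animals were pooled.

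Before a cell divides, condensin compacts its chromosomes, and kinetochores assemble on centromeric chromatin that carries the histone variant Cenpa and catch the microtubules of the spindle. The spindle checkpoint holds back the anaphase-promoting complex until every chromosome is attached, after which separase cuts cohesin and the sister chromatids part. Many of these genes are known to be transcribed late in the cell cycle and repressed in resting cells, and satellite cells of undamaged adult muscle are mostly resting cells that enter the cycle after injury.

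Values are log2 of the processed signal minus the 75th percentile of the same array, called the scaled log2 signal below, and they compare 1 probe across arrays and never 1 gene with another. The brightest probe of a gene on average over the arrays stands for it, and the gene was tested if, in 1 group or in both, that probe was well above background on 3 or 4 of the 4 arrays. Differences are injured minus basal on this log2 scale, with moderated standard errors (SE, n = 4 arrays per group) and adjusted p-values from limma over 13779 genes, called at 0.05. How precise the values are is limited by the number of arrays. Whether a lower bulk signal means fewer cells with the RNA or less RNA per cell cannot be told apart.

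The groups lay on 1 slide each, scanned apart, so an effect of slide or scan and one of injury cannot be told apart. Xist, the RNA of the inactive X chromosome in females, was at 6.37 to 6.57 on injured 2, 3 and 4, at 1.72 on injured 1 and between -4.97 and 3.85 on basal arrays. The Y-linked genes Ddx3y, Eif2s3y, Kdm5d and Uty were above background on injured 1 and on no other injured array, against 2 to 4 of the basal arrays. The sex of the mice may therefore differ between the groups, and its effect cannot be told apart from that of injury. Of the 7 satellite cell markers, Pax7 was above background on all 8 arrays and fell by 2.95, Vcam1 fell by 0.75, and Itga7 and Myod1 rose by 1.13 and 0.77. Cdh15 and Des were above background on all 8 arrays and were not called, and Myf5 was not above background on any array. Of 12 leukocyte and macrophage markers 9 were tested, with Tyrobp (1.99) and Cd3e (0.37) higher and Mpeg1 (-1.17) and Csf1r (-0.30) lower in injured samples. Most of their summed signal came from the probe of Itgam, the gene of the CD11b sorted against. In multiples of the 75th percentile it was at 455 to 544 on injured arrays, against 427 to 496 on basal arrays. The other 11 summed to 39.1 to 42.2 on injured arrays, against 47 to 52.3 on basal arrays, in the same unit. All 9 immediate early genes were lower, with sums of 152 to 177 on injured arrays against 1100 to 2270 on basal arrays. Of 6 fibro-adipogenic markers 3 were tested and all 3 were lower, with sums of 6.37 to 9.18 on injured arrays against 55.8 to 84.7 on basal arrays. Among them Dcn fell by 7.79 and was above background on 1 injured array, and Pdgfra was above background on no array. Ly6a, the gene of the Sca1 sorted against, was not tested. It was at 1.34, 0.07, -3.30 and -3.49 on basal arrays 1 to 4, against -3.20 to -1.73 on injured arrays. Of 7 pericyte and smooth muscle markers 5 were lower, with sums of 4.44 to 8.37 on injured arrays against 12.9 to 16.3 on basal arrays, and Rgs5 was lower by at least 18.2-fold. Whether these transcripts had a part in the mitotic genes' difference was not tested. The share of non-control spots well above background was 50.1% to 56.7%, and no spot was saturated.

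Satellite cells from injured muscle had more signal for nearly every mitotic gene that could be measured. Of the 49 genes 45 passed the filter on dim probes, and of these 43 were higher in injured samples, Pttg1 was lower and Espl1 was not called. Over all genes tested, 35.3% were higher and 24.8% were lower. A gene of the set that passed only because it was bright in injured samples had to differ, so the more even count is that of genes above background on all 8 arrays: there were 28, of which 27 were higher, where 37.8% of the 10784 genes that passed that filter were higher and 23.9% were lower. The median difference of the 45 genes was 2.46 on the log2 scale, against 0.17 for all 13779 genes. It was 2.37 over the 28 genes above background on all 8 arrays, against 0.18 for all genes under that filter. With normexp background correction and the 75th percentile it was 1.47, against 0.10 for all genes. Normexp here added an offset of 50 to every signal. Setting the 4 genes that have only a bound at that bound left 2.46 unchanged, but 4 values can hardly move a median over 45 genes. Injured and basal values did not overlap for 43 of the 45, all higher in injured samples, where 33.9% of all genes did so in that direction and 23.3% in the other. Genes that passed the filter only through injured arrays could hardly overlap, so this count is less even than that of the 28 genes. In the authors' deposited table, which holds their own normalized values, the same test called 38 of the 45 higher. Its columns for basal 2, 3 and 4 correlated less with their own arrays (Pearson's r of 0.768, 0.682 and 0.578) than the other columns did. For all genes that table gave 3301 higher and 775 lower, against 4866 and 3412 in the scanner files.

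**Figure D1:**
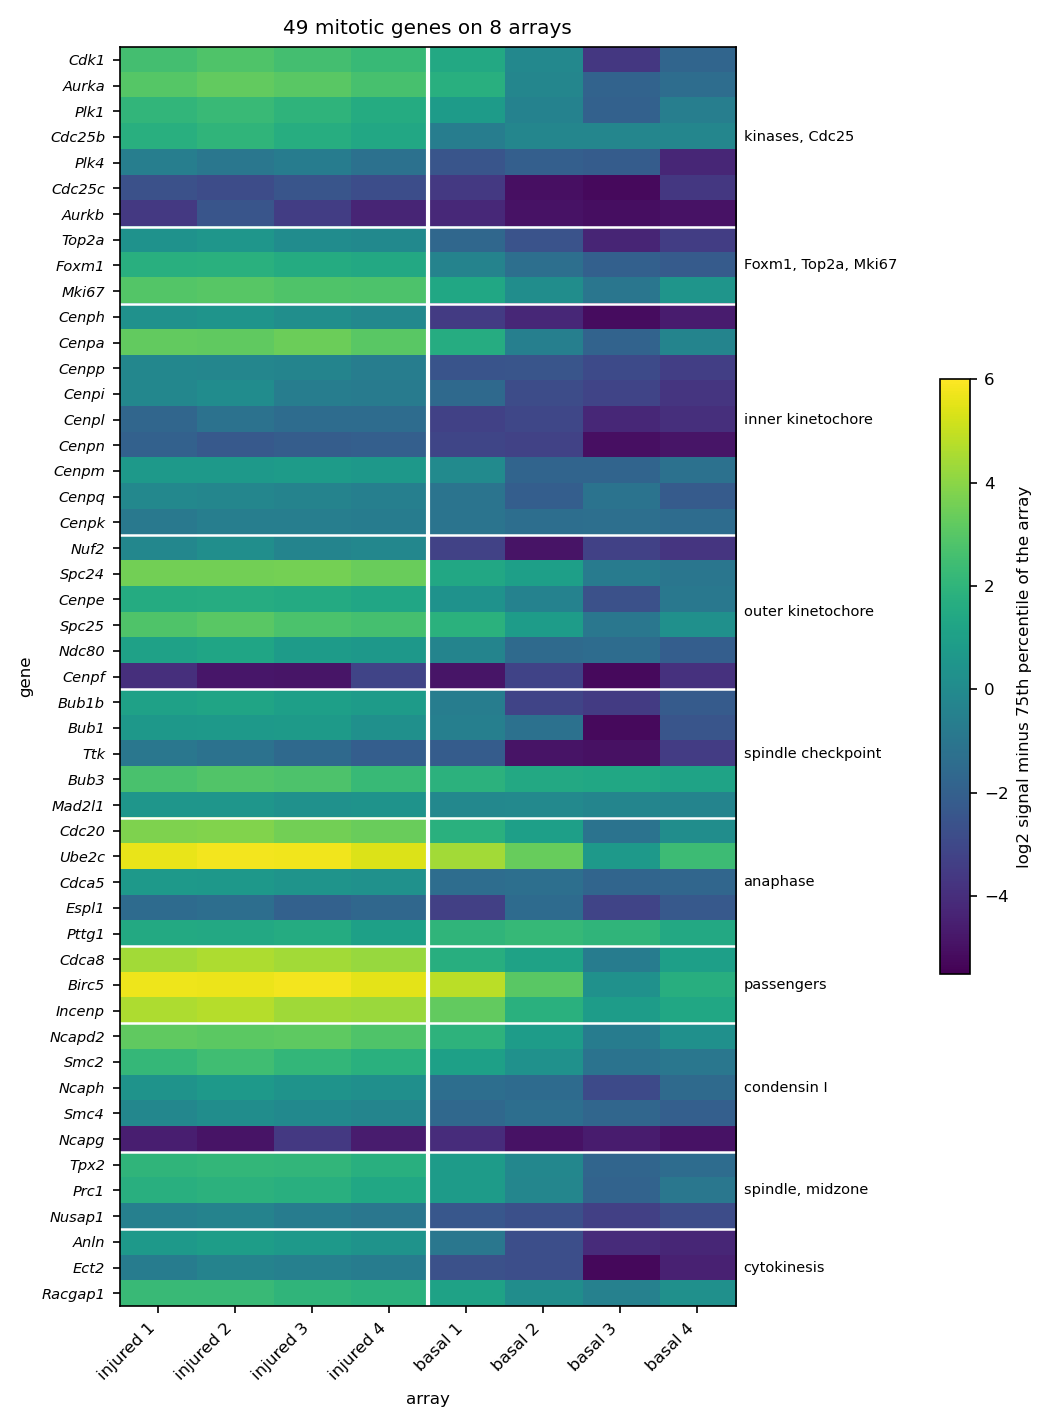
Scaled log2 signal (colour) of the 49 genes (rows, grouped by role and ordered by difference) on the 4 injured arrays (left of the white line) and the 4 basal arrays (right). Most rows are brighter on every injured array, and on basal arrays the signal is brightest on basal 1; Cenpf, Ncapg and Aurkb stay near background, and Pttg1 is slightly brighter on basal arrays.

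The promoters of these genes share short sequence motifs, shown here because the genes moved together. RefSeq promoter windows, from 250 bases before to 50 after the annotated start on GRCm38.p6, were at hand for 42 of the 49 genes, as 47 windows. TTTGAA, the core of the cell cycle homology region bound by the DREAM and MuvB complexes, was found on either strand (TTTGAA or TTCAAA) in 29 of the 47 windows, or 61.7%, against 17.9% of all 32851 windows. It was present in 13.2% of windows of all genes called higher, 11.8% of those called lower and 12.3% of those not called. CCAAT, the box bound by NF-Y (CCAAT or ATTGG), was in 36 windows, or 76.6%, against 37.4% of all windows, and both motifs were in 26 windows, or 55.3%, against 6.95%. GCGGGAA, an E2F type site (GCGGGAA or TTCCCGC), was in 7 windows, or 14.9%, against 4.6%. The TTTGAA matches lay close to the start: 26 windows had 1 from 100 bases before to 50 after it, or 55.3%, against 8.01% of all windows. Some windows are alternative starts of the same gene and overlap, and a match is a stretch of letters, not a site shown to be bound.

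Stretches from 120 bases before to 30 after the start follow for 4 genes with both motifs and for 2 without either, written 5′ to 3′ on the strand of the gene with TTTGAA and CCAAT matches of either strand in capitals. They are Cdk1 (chr10:69352883-69353032, minus strand), Cenpa (chr5:30666766-30666915, plus strand), Cdca8 (chr4:124936888-124937037, minus strand), Cdc20 (chr4:118437314-118437463, minus strand), Nuf2 (chr1:169531435-169531584, minus strand) and Pttg1 (chr11:43425952-43426101, minus strand), all on GRCm38.p6. In Cdca8 the 2 motifs share 1 base near the end of the stretch, and the capitals run together there.
Cdk1: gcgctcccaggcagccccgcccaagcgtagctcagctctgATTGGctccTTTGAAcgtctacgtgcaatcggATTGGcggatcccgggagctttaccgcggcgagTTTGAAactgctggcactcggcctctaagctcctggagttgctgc
Cenpa: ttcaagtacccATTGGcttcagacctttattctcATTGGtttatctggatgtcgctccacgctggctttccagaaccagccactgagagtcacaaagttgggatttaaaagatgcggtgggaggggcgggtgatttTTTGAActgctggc
Cdca8: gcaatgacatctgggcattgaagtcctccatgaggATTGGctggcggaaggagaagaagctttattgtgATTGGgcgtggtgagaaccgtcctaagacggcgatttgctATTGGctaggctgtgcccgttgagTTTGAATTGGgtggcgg
Cdc20: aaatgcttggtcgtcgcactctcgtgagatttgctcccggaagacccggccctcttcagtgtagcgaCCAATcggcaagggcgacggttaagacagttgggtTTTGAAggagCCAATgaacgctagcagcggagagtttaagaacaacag
Nuf2: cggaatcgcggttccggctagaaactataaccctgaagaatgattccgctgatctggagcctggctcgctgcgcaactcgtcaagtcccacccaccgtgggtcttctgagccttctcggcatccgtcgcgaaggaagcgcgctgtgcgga
Pttg1: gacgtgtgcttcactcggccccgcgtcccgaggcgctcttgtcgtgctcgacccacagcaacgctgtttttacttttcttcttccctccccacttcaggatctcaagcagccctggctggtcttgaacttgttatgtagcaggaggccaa
Nuf2, with neither motif in its window, was at least 8.31-fold higher, and Pttg1, also with neither, was the only one of the set called lower. Over the tested members, with bounds in place of 4 fitted values, the 24 with a TTTGAA match had a median difference of 2.49 and a range of 0.96 to 3.69, and the 16 whose windows had none had a median of 2.22 and a range of -0.55 to 3.39.

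**Figure D2:**
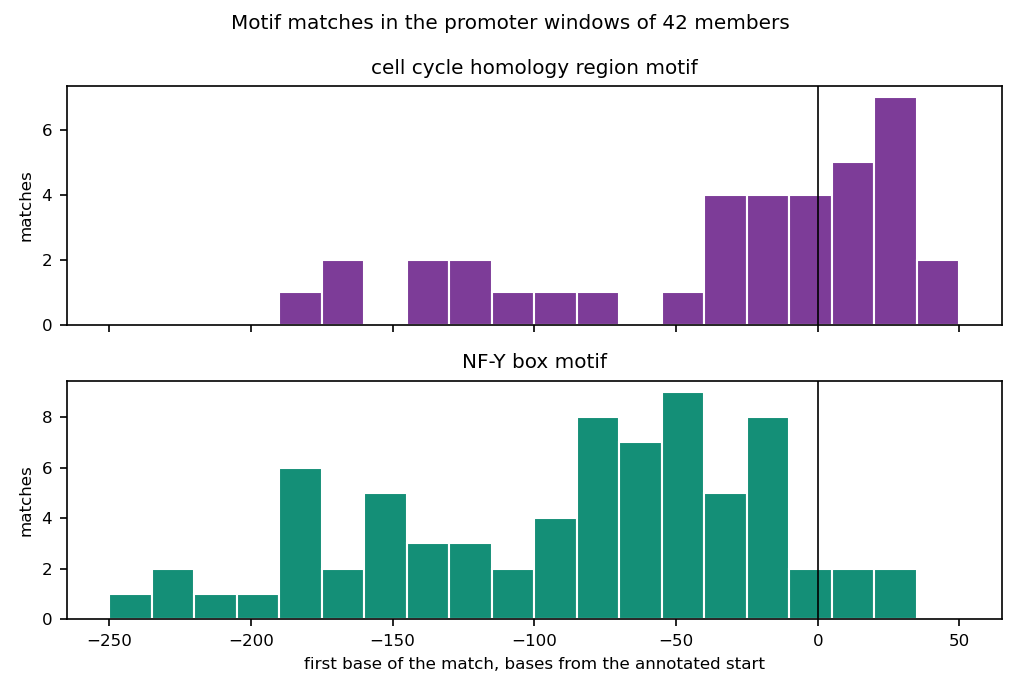
Number of motif matches (vertical axis) by distance of the first base of the match from the annotated start (horizontal axis, bases, negative before the start) for the cell cycle homology region (top) and the NF-Y box (bottom) in the 47 windows of 42 genes. The matches of the cell cycle homology region gather around and just after the start, and those of the NF-Y box lie mostly before it.

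The kinases that start and time mitosis rose together, with all 5 tested genes of this group higher and a median difference of 2.51. Cdk1, the kinase that drives entry into mitosis with cyclin B, stood at 2.54, 2.83, 2.55 and 2.26 on injured arrays 1 to 4, against 1.45, -0.14, -3.62 and -1.74 on basal arrays 1 to 4. Every injured array was above every basal array, and the basal arrays were spread over more than the distance between the groups. The difference was 3.56 ± 0.92 (adjusted p = 0.00942), 2.69 without basal 3 and 4.38 without basal 1. Aurka, the kinase of centrosome maturation and spindle poles, had 2.95, 3.22, 3.06 and 2.66 on injured arrays and 1.75, -0.24, -1.86 and -1.41 on basal arrays, a rise of 3.41 ± 0.69 (adjusted p = 0.00279). Its groups did not overlap, basal 1 was the closest to the injured arrays, and the difference was 4.14 without basal 1. Plk1, which acts from mitotic entry to cytokinesis, rose by 2.51 ± 0.50 (adjusted p = 0.00267), and Cdc25b, a phosphatase that activates Cdk1, by 2.03 ± 0.17 (adjusted p = 4.06e-05). Plk4, which controls centriole duplication, rose by 1.85 ± 0.46 (adjusted p = 0.00782), although its difference was -0.18 and not called in the authors' deposited table. Cdc25c, another activator of Cdk1, was above background on 2 injured arrays and no basal array, which makes it at least 1.4-fold higher without a test. Aurkb, the kinase of the chromosomal passenger complex, was above background on 1 injured array and no basal array and was not tested.

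For a gene not above background on any array of a group, a fold is given as a bound: the mean of the other group against the mean of the dim group after raising each of its arrays to the signal of the dimmest probe that is well above background there.

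Foxm1, the transcription factor that activates many genes of mitosis, stood at 1.78, 1.82, 1.56 and 1.44 on injured arrays, against -0.35, -1.31, -1.97 and -2.18 on basal arrays. The groups lay far apart, with the lowest injured array well above basal 1, and the rise was 3.1 ± 0.37 (adjusted p = 0.000187). Top2a, the topoisomerase that untangles sister chromatids, had 0.34, 0.53, 0.10 and -0.04 on injured arrays and -1.65, -2.55, -4.33 and -3.43 on basal arrays. Basal 3 was the lowest, only 2 basal arrays were above background, and Top2a rose by 3.22 ± 0.50 (adjusted p = 0.000763). Mki67, which coats mitotic chromosomes and is the common marker of cycling cells, rose by 2.65 ± 0.42 (adjusted p = 0.000824).

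At the inner kinetochore all 9 genes were tested and higher, with differences of 0.61 to 3.48 where the 3 genes with only a bound stand at that bound. Cenph, a subunit of the constitutive centromere network, was at 0.33, 0.46, 0.17 and -0.12 on injured arrays, against -3.50, -4.23, -5.12 and -4.61 on basal arrays. No basal array was above background, so Cenph was at least 10.5-fold higher in injured samples (adjusted p = 1.65e-05). Cenpa, the histone variant that marks the centromere, had 3.25, 3.20, 3.41 and 3.04 on injured arrays and 1.64, -0.53, -1.83 and -0.30 on basal arrays. Basal 1 was more than 1 log2 unit above the other basal arrays but below every injured array, and the rise was 3.48 ± 0.61 (adjusted p = 0.00136), or 4.11 without basal 1. Other subunits of this network rose as well, Cenpp by 2.49 ± 0.22 (adjusted p = 4.65e-05) and Cenpi by 2.48 ± 0.42 (adjusted p = 0.00123). Each had 1 basal array above background, and with normexp and the 75th percentile they rose by 1.01 and 0.98. For Cenpi the deposited table of the authors gave -1.73, not called. Cenpl was higher by at least 3.22-fold (adjusted p = 0.000237). Cenpn, which recognises Cenpa nucleosomes, was higher by at least 2.09-fold (adjusted p = 0.00508), and had 0.98 (adjusted p = 0.192), not called, in the authors' deposited table. Cenpm rose by 1.91 ± 0.37, Cenpq by 1.32 ± 0.28 and Cenpk by 0.61 ± 0.13 (adjusted p 0.00234 to 0.00413). The median of the 9 genes was 2.18, and 1.91 with the 3 bounds in place of their fitted values.

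The outer kinetochore holds the Ndc80 complex, which grips the microtubule. Nuf2, 1 of its 4 subunits, was at -0.17, 0.16, -0.31 and -0.18 on injured arrays, against -3.22, -4.90, -3.28 and -3.72 on basal arrays. It was not above background on any basal array and was at least 8.31-fold higher in injured samples (adjusted p = 6.91e-05). Spc24, the subunit that ties the complex to the inner kinetochore, had 3.54, 3.57, 3.59 and 3.38 on injured arrays and 1.41, 0.97, -0.70 and -0.96 on basal arrays. The injured arrays were nearly level, basal 1 and 2 were above basal 3 and 4, and Spc24 rose by 3.34 ± 0.51 (adjusted p = 0.000661). The partner of Spc24, Spc25, rose by 2.29 ± 0.51 (adjusted p = 0.00441) and Ndc80 by 2.27 ± 0.35 (adjusted p = 0.000679). Ndc80 had -0.45, not called, in the authors' deposited table. Cenpe, the kinesin that moves chromosomes to the spindle equator, rose by 2.42 ± 0.55 (adjusted p = 0.00504), or by 1.83 without basal 3. Cenpf, a large protein of the outer kinetochore and nuclear matrix, had 1 probe, dim on all 8 arrays, so nothing can be said of its direction.

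All 5 genes of the spindle checkpoint were higher, by 0.64 to 3.40. Bub1b, the BubR1 subunit of the mitotic checkpoint complex, had 1.09, 1.22, 1.00 and 0.82 on injured arrays and -0.62, -3.16, -3.50 and -2.18 on basal arrays. Basal 1 was the highest basal array and still below every injured array, 2 basal arrays were above background, and the rise was 3.40 ± 0.55 (adjusted p = 0.000938). Bub1, the kinase that recruits checkpoint proteins to the kinetochore, was at 0.62, 0.70, 0.75 and 0.29 on injured arrays, against -0.56, -1.20, -5.21 and -2.45 on basal arrays. Basal 3 was far below the rest and below background, and the rise of 2.95 ± 0.87 (adjusted p = 0.0176) was 1.99 without basal 3 and 3.55 without basal 1. Ttk, the Mps1 kinase that sets off the checkpoint, rose by 2.44 ± 0.61 (adjusted p = 0.00804) with 1 basal array above background. With normexp and the 75th percentile Ttk rose by 0.64. Bub3, which docks Bub1 and Bub1b, rose by 1.19 ± 0.21 (adjusted p = 0.00125), and Mad2l1, the Mad2 protein that binds Cdc20, by 0.64 ± 0.12 (adjusted p = 0.00177). For Mad2l1 the difference was -1.33 and not called in the authors' deposited table.

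Among the 5 genes of anaphase and sister chromatid separation the calls were mixed, with 3 higher, 1 lower and 1 not called. Cdc20, the activator of the anaphase-promoting complex, stood at 3.76, 3.82, 3.55 and 3.37 on injured arrays, against 1.79, 0.97, -1.12 and 0.12 on basal arrays. The groups did not overlap, basal 3 was the lowest array, and Cdc20 rose by 3.19 ± 0.54 (adjusted p = 0.00113). Ube2c, the ubiquitin-conjugating enzyme of that complex, had 5.63, 5.81, 5.76 and 5.40 on injured arrays and 4.42, 3.35, 0.66 and 2.38 on basal arrays. The injured arrays lay within 1 log2 unit and the basal arrays over more than 3, with a rise of 2.95 ± 0.68 (adjusted p = 0.00545) that was 2.27 without basal 3. Cdca5, the cohesin protector sororin, rose by 2.08 ± 0.16 (adjusted p = 2.4e-05).

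Pttg1, securin, the inhibitor that holds separase inactive until anaphase, had 1.47, 1.44, 1.57 and 1.02 on injured arrays and 2.03, 2.18, 2.04 and 1.44 on basal arrays. Basal 4 was below injured 1, 2 and 3, so the groups overlapped, and Pttg1 fell by 0.55 ± 0.20 (adjusted p = 0.0405). Of the 8 comparisons that left out 1 array, that without basal 4 kept the call. The other probe of Pttg1 differed by 0.66 in the opposite direction (adjusted p = 0.0816 over all probes), and the mean of both probes by 0.06. Espl1, separase itself, was at -1.46, -1.32, -1.91 and -1.67 on injured arrays, against -3.33, -1.47, -3.13 and -2.28 on basal arrays. Basal 2 lay within the range of the injured arrays, the groups overlapped, and the difference of 0.96 ± 0.39 was not called (adjusted p = 0.0581). Without basal 2 it was 1.32 (adjusted p = 0.0046). It was also called higher with quantile normalization (1.08, adjusted p = 0.0379), with array weights (0.89, adjusted p = 0.0458), with the replicate block (adjusted p = 0.0376), without basal 1 and 2 (1.12, adjusted p = 0.0107) and in the authors' deposited table (0.97, adjusted p = 0.0305).

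**Figure D3:**
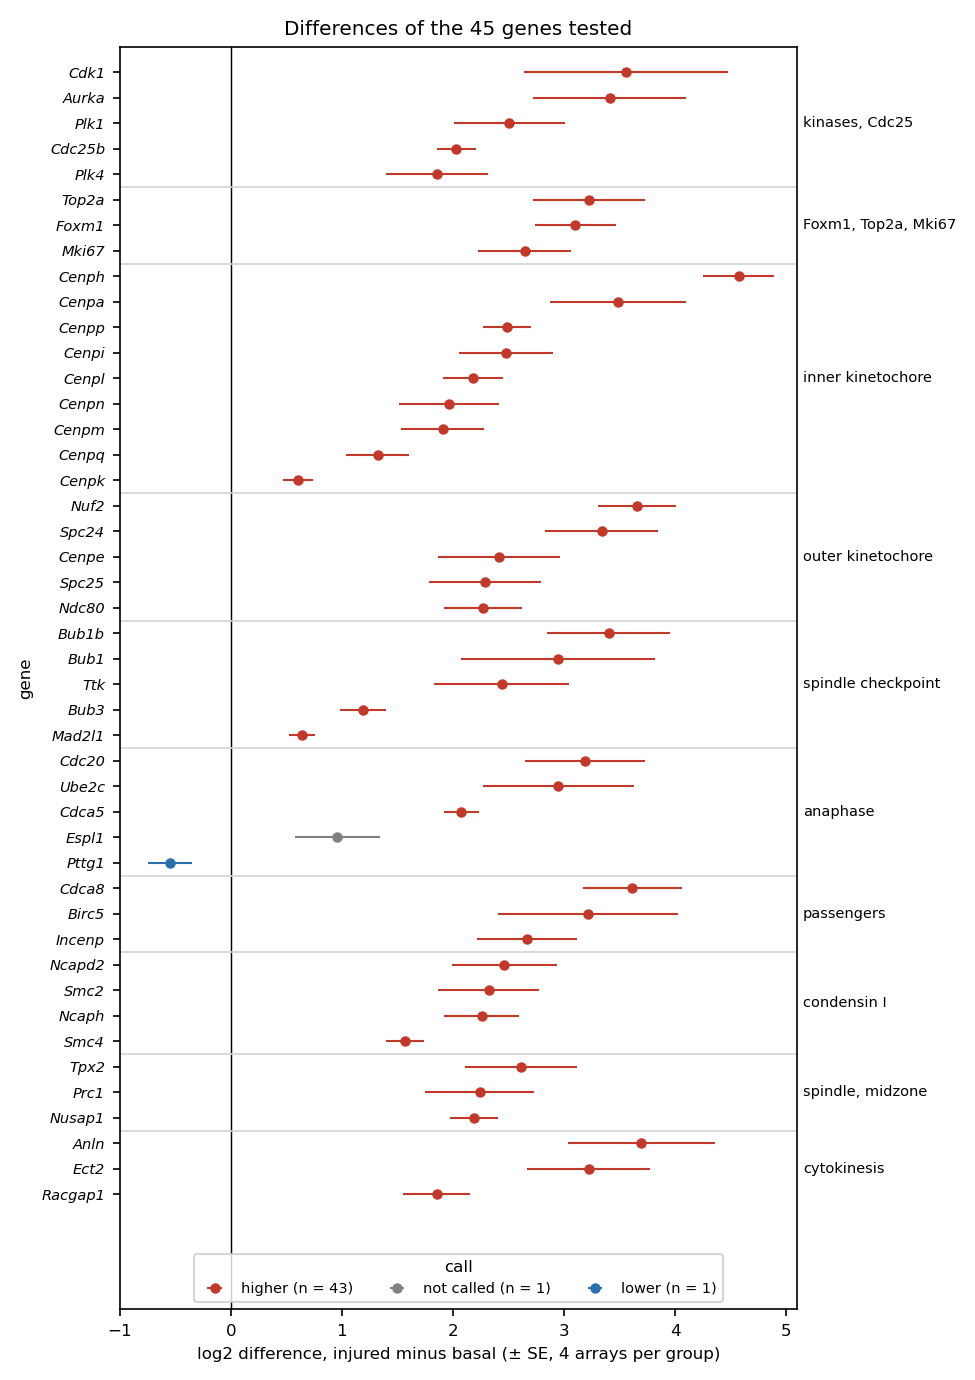
Log2 difference between injured and basal arrays (point, horizontal axis) with its moderated SE (bar, 4 arrays per group) for the 45 genes tested, grouped by role. The 43 genes in red were called higher, Pttg1 in blue lower and Espl1 in grey was not called; Cenph, Cenpl, Cenpn and Nuf2 were not above background on any basal array, and their points are fitted values where the text gives bounds.

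The chromosomal passenger complex corrects faulty attachments and then moves to the midzone, and its 3 subunits other than the kinase were higher. Cdca8, borealin, had 4.39, 4.58, 4.40 and 4.21 on injured arrays and 1.70, 1.12, -0.68 and 0.99 on basal arrays. The distance between the lowest injured and the highest basal array was larger than the range within either group, and Cdca8 rose by 3.61 ± 0.44 (adjusted p = 0.000228). Birc5, survivin, was at 5.69, 5.67, 5.82 and 5.55 on injured arrays, against 4.80, 3.04, 0.31 and 1.72 on basal arrays. Basal 1 came within 1 log2 unit of the injured arrays and basal 3 was far below, so the rise of 3.22 ± 0.81 (adjusted p = 0.00825) was 2.50 without basal 3 and 3.99 without basal 1. Incenp, the scaffold of the complex, rose by 2.67 ± 0.45 (adjusted p = 0.00114).

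Condensin I and its pair of SMC ATPases were higher for the 4 subunits that could be tested. Ncapd2, a HEAT repeat subunit, stood at 3.17, 3.08, 3.14 and 2.83 on injured arrays, against 1.92, 0.84, -0.67 and 0.28 on basal arrays. All injured arrays were above all basal arrays, and the rise was 2.46 ± 0.47 (adjusted p = 0.00208). Smc2, an ATPase shared with condensin II, had 2.15, 2.46, 2.13 and 1.82 on injured arrays and 1.04, 0.30, -1.12 and -0.95 on basal arrays. The groups did not overlap, basal 3 and 4 were lowest, and Smc2 rose by 2.32 ± 0.46 (adjusted p = 0.00244). Ncaph, the kleisin that closes the ring, rose by 2.26 ± 0.34 (adjusted p = 0.000584), and Smc4, the partner of Smc2, by 1.57 ± 0.17 (adjusted p = 0.00013). Ncapg, the other HEAT repeat subunit, was not above background on any array.

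Of the genes that build the spindle and its midzone, Tpx2, an activator of Aurka and nucleator of microtubules, had 2.01, 2.13, 2.05 and 1.74 on injured arrays and 0.79, -0.17, -1.73 and -1.42 on basal arrays. Basal 1 and 2 lay between the injured arrays and basal 3 and 4, and Tpx2 rose by 2.61 ± 0.50 (adjusted p = 0.00218). Prc1, the bundler of antiparallel microtubules in the midzone, was at 1.74, 1.89, 1.77 and 1.35 on injured arrays, against 0.81, -0.23, -1.84 and -0.96 on basal arrays. The groups did not overlap, and the rise was 2.24 ± 0.49 (adjusted p = 0.00417). Nusap1, a microtubule stabiliser, rose by 2.19 ± 0.22 (adjusted p = 8.56e-05), with 1 basal array above background. With normexp and the 75th percentile Nusap1 rose by 0.82. Its difference was -0.64 and not called in the authors' deposited table.

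All 3 genes of cytokinesis were higher. Anln, anillin, the scaffold of the contractile ring, had 0.72, 0.91, 0.73 and 0.41 on injured arrays and -0.92, -2.75, -4.08 and -4.27 on basal arrays. Basal 1 was the only basal array above background, and the rise of 3.69 ± 0.66 (adjusted p = 0.0015) was 4.39 without it. With normexp and the 75th percentile Anln rose by 1.60. Ect2, the exchange factor that activates RhoA at the cleavage furrow, was at -0.69, -0.33, -0.50 and -0.65 on injured arrays, against -2.63, -2.75, -5.25 and -4.43 on basal arrays. The groups lay nearly 2 log2 units apart at their closest, and Ect2 rose by 3.22 ± 0.55 (adjusted p = 0.00122) with 1 basal array above background. With normexp and the 75th percentile Ect2 rose by 1.03. Racgap1, which brings Ect2 to the midzone, rose by 1.85 ± 0.30 (adjusted p = 0.000938).

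The basal arrays were not alike for these genes. Relative to the mean of the injured arrays, the median of the 45 tested genes was 84.9% to 115% on single injured arrays, against 42.6% on basal 1, 21.6% on basal 2, 8.43% on basal 3 and 12.5% on basal 4. For all genes called higher the medians on basal 1 to 4 were 53%, 46.4%, 41.7% and 43.9%. Basal 1 was the highest basal array for 36 of the 45 genes and basal 2 for the other 9, and basal 3 was the lowest for 28. Over all genes called higher, basal 1 was the highest basal array for 55.4%. The order basal 1, basal 2, basal 4, basal 3 from high to low held in 21 of the 45. Of the 49 genes, 45 to 46 were above background on each injured array, against 38 on basal 1, 36 on basal 2, 29 on basal 3 and 33 on basal 4.

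The spread within a group was accordingly uneven. The median SD of the 45 genes was 0.201 among injured arrays and 1.03 among basal arrays, where all genes had medians of 0.174 and 0.338. The SD was larger among basal arrays for 43 of the 45 genes, as it was for 79.4% of all genes. Among injured arrays the differences were small, with injured 2 the highest for 30 of the 45 genes and injured 4 the lowest for 38. For all genes called higher the medians on injured 1 to 4 were 102%, 106%, 99.5% and 93.3% of the injured mean. There too injured 2 was the highest and injured 4 the lowest.

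The endothelial markers also differed among the basal arrays, and not all in the same way. Of the 7 endothelial markers, Tek was at -1.21, -0.93, -1.24 and -0.44 on injured arrays, against 4.33 and 3.97 on basal 3 and 4 and lower values, down to 3.13, on basal 1 and 2, and fell by 4.69 (adjusted p = 9.78e-06). Kdr was 3.02 to 3.32 on injured arrays, against 2.63 to 2.93 on basal arrays, and rose by 0.39 (adjusted p = 0.0223). These 2 genes gave most of the list's summed signal on basal 3 and 4. Cdh5 and Emcn were above background on basal 1 and 2 and on no other array, and Pecam1, the CD31 removed in the sort, was at -3.11 to -1.82 on injured arrays, against 3.20 and 2.87 on basal 1 and 2 and -2.20 and -3.22 on basal 3 and 4. The summed signal of the 7 endothelial markers was 9.23 to 11.5 on injured arrays, against 38.6, 30.9, 27.6 and 22.7 on basal arrays 1 to 4, in multiples of the 75th percentile. Xist was 3.85, 2.15, -1.12 and -4.97 on basal arrays 1 to 4. Whether the cells that gave these transcripts also gave the mitotic signal of basal 1 and 2 was not tested. Without basal 1 and 2 the median difference of the set was 3.14 and 44 genes were higher, with a larger difference for 43 of the 45 genes. Basal 1 or basal 2 was the highest basal array for each of the 45 genes. Larger differences without them were thus close to fixed in advance, and this comparison does not test the source of the signal. Without injured 2, 3 and 4, where Xist was high, the median was 2.59 and all 45 genes kept their direction, and 8 were called higher with 1 injured array left.

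**Figure D4:**
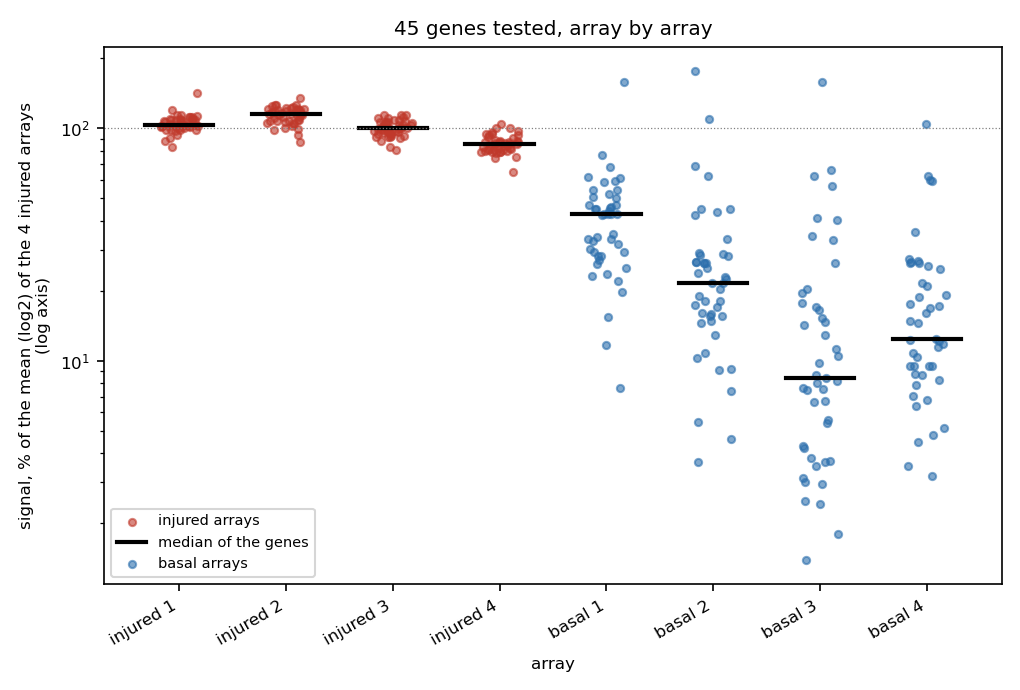
Signal of each of the 45 genes tested (points) on each array as a percentage of its mean over the 4 injured arrays (vertical log axis), injured arrays in red at left and basal arrays in blue at right, with the median of the genes as a black line. The medians of the injured arrays are 84.9% to 115%, and those of basal 1 to 4 are 42.6%, 21.6%, 8.43% and 12.5%.

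Of the 49 genes 16 had more than 1 probe, and some of these probes differed in size of response. Birc5, Cdca8, Mki67 and Ube2c had probes that rose alike, such as 3.22, 3.25 and 3.91 for the 3 probes of Birc5. Cdk1 had differences of 3.56 and 3.71 with 2 probes and of 0.73 with another, which was above background on all 8 arrays. Mad2l1 had 0.64 with the probe used, 1.17 with another and 2.99 with the one that was above background on 1 basal array. For Cenpk the probe used gave 0.61 and the other 2.98, both past the threshold when each probe was fitted (adjusted p 0.00458 and 0.00209 over all probes). The small rises of Cenpk and Mad2l1 thus belong to their brightest probes. The Cenpk probes are on chr13:105032892-105032951 and chr13:105039517-105039576 of mm9, plus strand, the build of the array files, which assign both to the same transcript. They are printed 5′ to 3′, the probe used first, to show which stretches of the gene gave the 2 sizes.
Cenpk, difference 0.61: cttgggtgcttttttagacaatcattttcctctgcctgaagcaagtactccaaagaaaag
Cenpk, difference 2.98: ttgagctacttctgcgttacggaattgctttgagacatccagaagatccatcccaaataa
Their scaled log2 signals averaged -0.67 on injured and -1.28 on basal arrays with the first, and -0.32 on injured and -3.30 on basal arrays with the second, which was above background on 2 basal arrays.

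**Figure D5:**
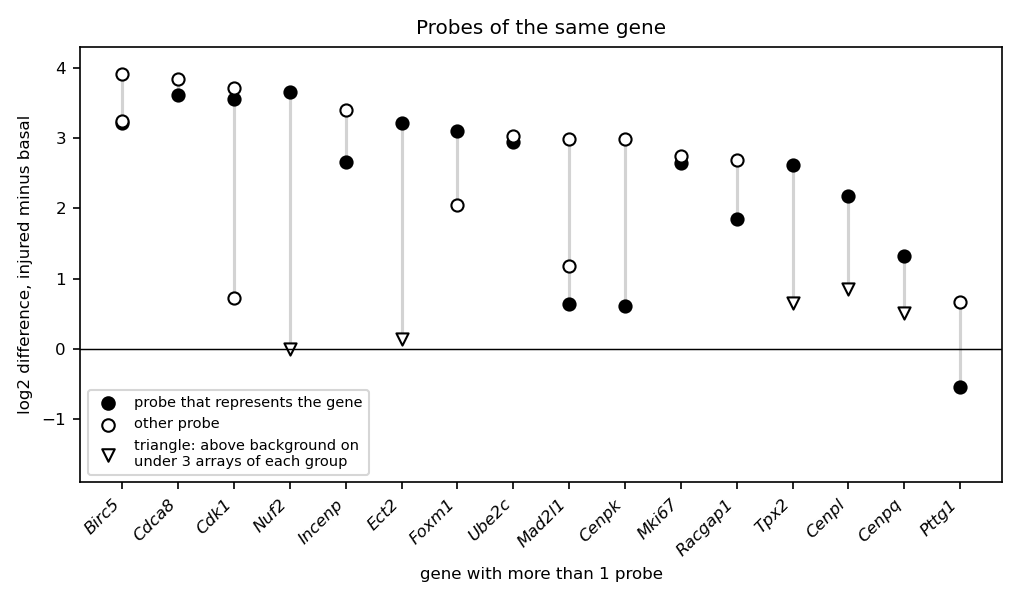
Log2 difference between injured and basal arrays (vertical axis) of every probe of the 16 genes with more than 1 probe (horizontal axis), filled for the probe that represents the gene and open for the others, with triangles for probes above background on fewer than 3 arrays of each group. Among probes drawn as circles, those of Cdk1, Mad2l1 and Cenpk differ by more than 2 log2 units, and the probes of Pttg1 lie on both sides of 0.

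Other genes of the same machinery were read from 6 lists with 78 genes, of which 67 were tested, 48 were higher, 4 were lower and 15 were not called, with a median difference of 1.5. Over all genes tested, 35.3% were higher and 24.8% were lower, with a median of 0.17. A gene that passed the filter only through injured arrays had little room for another direction. Of the 44 genes above background on all 8 arrays 28 were higher and 4 lower, against 37.8% and 23.9% of all genes under that filter. All 11 tested genes of the remaining outer kinetochore were higher, led by Kntc1 (4.01 ± 0.60, adjusted p = 0.000585) and Zwilch (3.81 ± 0.67, adjusted p = 0.00136), subunits of the complex that brings dynein to kinetochores. Both were above background on 1 basal array only. With normexp background correction and the 75th percentile they rose by 1.24 and 1.34. Ska1, which helps Ndc80 hold shrinking microtubules, was at least 3.81-fold higher (adjusted p = 0.000408). Kntc1 had 0.56, not called, in the authors' deposited table. Of the other inner kinetochore and Cenpa loading genes 5 of 8 tested were higher, led by Apitd1, the histone fold protein Cenps, at least 3.62-fold (adjusted p = 0.00036), Cenpt (1.98 ± 0.38, adjusted p = 0.00226) and Cenpw (1.29 ± 0.25, adjusted p = 0.00214).

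Among the checkpoint and shugoshin genes 3 of 4 tested were higher. Trip13, the ATPase that remodels Mad2, rose by 3.62 ± 0.43 (adjusted p = 0.000182). The cohesin protector Sgol2 was higher by at least 5.67-fold (adjusted p = 0.000418). Its relative Sgol1 rose by 2.57 ± 0.83 (adjusted p = 0.0258), a call lost when any 1 injured array was left out (adjusted p 0.0502 to 0.0594). In the list of mitotic entry and spindle genes 15 of 17 were higher, with the kinase Melk at 4.38 ± 0.52 (adjusted p = 2e-04), the spindle protein Dlgap5 at 3.84 ± 0.90 (adjusted p = 0.00593) and Ckap2l at least 4.25-fold higher (adjusted p = 2.03e-05). Melk was above background on 1 basal array only, and rose by 1.79 with normexp background correction and the 75th percentile. Hmmr, a spindle pole protein that is also a hyaluronan receptor, fell by 0.92 ± 0.11 (adjusted p = 0.000176) and was lower on every injured array than on any basal array, with -0.68 (adjusted p = 0.115), not called, in the authors' deposited table.

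Other lists held complexes that also act outside mitosis. Of 14 tested genes of condensin II and cohesin 6 were higher, 3 were lower and 5 were not called, with a median difference of 0.11, where 35.3% of all genes tested were higher and 24.8% were lower with a median of 0.17. Ncapg2, a condensin II subunit, was higher by at least 3.42-fold (adjusted p = 0.00179), and the cohesin genes Pds5a and Smc3 rose by 1.26 ± 0.18 and 1.06 ± 0.19 (adjusted p = 0.000472 and 0.00142). The cohesin loaders Nipbl and Mau2 fell by 0.89 ± 0.17 and 0.66 ± 0.13 (adjusted p = 0.00212 and 0.00244), and the cohesin subunit Stag2 by 0.37 ± 0.13 (adjusted p = 0.0424). Stag2 lost its call in 6 of the 8 comparisons that left out 1 array, and in the authors' deposited table Nipbl, Stag2, Mau2 and Ncapg2 had differences of 0.53, 0.63, -0.18 and 0.20, none of them called. For the anaphase-promoting complex 8 of 13 tested genes were higher with a median of 0.48, led by its inhibitor Fbxo5 (2.55 ± 0.19, adjusted p = 2.49e-05), its activator Fzr1 (1.97 ± 0.34, adjusted p = 0.00119) and the subunit Anapc4 (1.69 ± 0.12, adjusted p = 2.18e-05). Whether these lists differ from the 49 genes was not tested.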

How the data were processed

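Total RNA of 8 samples of sorted mouse satellite cells was labelled with Cy3 and put on 1 array each, with 59305 non-control spots. The deposited scanner files hold spot intensity. Per the file headers, Agilent Feature Extraction (10.7.3.1) subtracted background and did not normalize between arrays. The authors also deposited normalized values, on a log2 scale as judged from their range, called the authors' deposited table in the text. The submitters' processing notes name Agilent Feature Extraction and limma, and how this table was computed is not given in the sources used here. It served as an alternative only: over probes, each column had Pearson's r of 0.578 to 0.953 with its own array. The lowest were those of basal 4 (0.578), basal 3 (0.682) and basal 2 (0.768), against 0.8475 to 0.9409 for the injured arrays.

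Spots flagged as outliers were left out, spots of a probe were averaged, and groups were taken from the sample titles. The comparison of both groups used limma (3.58.1, R 4.3.3, package data.table, version 1.17.8) with moderated variances (6 residual degrees of freedom, 2.549 prior), in two-sided tests with Benjamini-Hochberg adjustment over 13779 genes, of which 8888 had an unadjusted p under 0.05. The fit was tested on simulated data. Named in full were the 2 genes with the largest difference of each role and those lower or not called, and of each other list the 3 called genes that rose most and every called gene that fell. The genes and lists were chosen with earlier results of these data known, and the probes of a gene were fitted singly after seeing the data. A slide block was not run, since each slide holds 1 group. Alternatives are named in the closing section.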

Additional observations from a re-analysis of the deposited data

Results flagged for a closer look

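In 2 of the 90 groups of 4 arrays examined, 1 array stood apart from the other 3 by more than the 0.829 of the group's range that is the critical value of Dixon's test, and chance alone gives about 1 such group in 20. Cdc25b was at -0.63 on basal 1, where the nearest basal array was at -0.22, a gap of 0.956 of the range. Ncaph was at -2.92 on basal 3, where the nearest basal array was at -1.54, a gap of 0.874 of the range.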

How the results depend on the processing

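The count of 43 higher genes held in most alternatives: 43 to 45 were higher with quantile normalization, normexp background correction, median scaling on the probes bright on every array, no filter on dim probes, the mean of all probes, array weights, limma's robust trend and names that are no gene symbol. Leaving out 1 array gave 43 to 44 higher and 0 to 1 lower, with a median of 2.06 to 2.89, without basal 3 and without basal 1. Leaving out basal 1 moved the fold of 6 genes by over 1.5 times, leaving out basal 3 that of 5. The median difference of 2.46 was lower with normexp, at 1.47 with the 75th percentile (all genes 0.10) and 1.40 with quantile normalization (all genes 0.07). With genes above background on all 8 arrays 28 of the 44 other mitotic genes tested were higher and 4 lower. In the set, 27 of the 28 tested under that filter were higher. Pttg1 was the only gene called lower, and 0 were with no filter on dim probes, the authors' deposited table, the mean of all probes (Pttg1 0.0568), array weights, without basal 1 and 2, and without injured 2, 3 and 4. That last comparison, with 1 injured array assumed to vary like the basal ones, called 8 of the set higher, 9 other mitotic genes higher and 0 lower, and 770 genes higher and 1009 lower overall. With names that are no gene symbol, which adds features, 7339 were higher and 5498 lower. In the authors' deposited table, where the median of all genes was 0.47, 775 genes were lower and 0 of the other mitotic genes. There the direction turned for Plk4 (-0.18), Cenpi (-1.73), Ndc80 (-0.45), Mad2l1 (-1.33), Pttg1 (0.0883), Nusap1 (-0.64), Nipbl (0.53) and Stag2 (0.63), none of them called, and the cause was not tested. Dim basal signal limits the size of the rises, since 17 of the 45 genes were not above background on all arrays.

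Replicate numbers, which are also slide positions, do not pair the samples: same-numbered arrays had correlations of deviations of -0.002 to 0.094, and only injured 4 correlated best with its own number. With the replicate block 44 genes of the set were higher and 1 lower, and 4606 and 3227 of all genes.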
